A study of Homo sapiens with 36 samples.

Results

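The collagen genes are the protein-coding genes whose symbol is COL, a number, A and a number. The rule used symbols only and no measured value, and it found 44 genes among 19974 protein-coding genes on chromosomes 1 to 22 and X. They divide into 11 fibrillar collagens, 9 network collagens and 24 others, from COL1A1 to COL28A1. Chromatin accessibility around them was read by ATAC-seq, where sequencing adapters are inserted into open DNA by a transposase. All libraries came from wild-type BT549, a triple-negative breast cancer line with a mesenchymal appearance. In the first experiment, cells carried a control siRNA pool (siCtl) or a pool against GATA6 (siGATA6) for 72 h, and then received vehicle (Veh) or 500 nM of the synthetic glucocorticoid dexamethasone (DEX, dissolved in water) for 2 h, with 3 libraries in each of the groups siCtl_Veh, siCtl_DEX, siGATA6_Veh and siGATA6_DEX. The second experiment carried no siRNA and compared DMSO for 4 h, BRM014 at 10 µM for 4 h (a compound in DMSO that blocks BRG1 and BRM, the ATPases of SWI/SNF), 500 nM DEX for 4 h with DMSO, and DEX with BRM014, with 4 libraries in each of the groups DMSO, BRM014, DEX_DMSO and DEX_BRM014. The third experiment compared siRNA against BRG1 and BRM together (siBRG1_siBRM) with control siRNA alone (siCtl_only), with 4 libraries each and no DEX. How long this last siRNA was left is not given in the sources used here, a pooled siRNA does not remove its target completely, and all values come from 1 cell line. The titles number biological replicates, and MDA-MB-231, a line also named in the design, was not analysed here.

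Collagens are secreted proteins whose chains wind into a triple helix with glycine at every turn. Fibrillar collagens pack into the staggered fibrils that give tendon, skin, bone and tumour stroma their strength, network collagens such as type IV form the sheets of basement membranes, and the others decorate fibrils, build beaded filaments and anchoring fibrils, or span the plasma membrane. Mesenchymal tumour cells can deposit collagens themselves, and the matrix they build stiffens tissue and guides invasion. SWI/SNF complexes use ATP to slide and evict nucleosomes and keep many enhancers open, and the glucocorticoid receptor, which DEX activates, opens further sites with their help.

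The deposited values are peaks called in each library on its own, and each peak's score, fold and q-value are the authors'. Overlapping peaks of an experiment were joined into regions, a library was said to hold a region when it had a peak in it, and a region was given to a gene when a peak of it had its centre in the gene or within 50 kb of either end. The collagens took 1205 of 204358 regions in the GATA6 experiment, 1083 of 189959 in the BRM014 experiment and 694 of 128681 in the siBRG1_siBRM experiment. Neighbouring collagens shared 61, 51 and 32 of these regions, 24, 19 and 9 of them between COL4A1 and COL4A2, so the chains of such pairs were not measured independently. Peaks per library ranged from 37184 to 131423. In the BRM014 experiment the mean was 94069 peaks in DMSO and 53586 in BRM014, and in the third experiment it was 85769 in siCtl_only and 50934 in siBRG1_siBRM. Read depth is not known, and its part in these numbers of peaks was not tested. A background level, the lowest value fitted to each library's weak peaks, served as a relative measure of depth and was not checked against read counts. This level averaged 0.281 in DMSO against 0.275 in BRM014 and 0.293 in siCtl_only against 0.281 in siBRG1_siBRM. It lay between 0.492 and 0.677 in the GATA6 experiment and between 0.235 and 0.335 elsewhere, so numbers of regions are not compared across experiments. Of the marker genes checked for a peak within 1000 bp of an end, VIM, AXL, CAV1, CDH2 and TWIST1 of mesenchymal lines had one in 36 of 36 libraries, and ESR1 of luminal cells, LYZ of leukocytes, and PECAM1, CDH5 and VWF of endothelium had none. ZEB1 had a peak in 33 libraries, PTPRC, a leukocyte gene, in 30, KDR of endothelium in 24, KRT8 in 22, CDH1 in 21, KRT18 in 17, CD3E in 16, GATA3 in 13 and EPCAM in 11.

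Each library held between 203 and 725 collagen regions, which made up 0.513% to 0.596% of all regions it held. The siCtl_Veh libraries held 628 ± 13.6 (SD, n = 3) collagen regions, siCtl_DEX 662 ± 17.8, siGATA6_Veh 612 ± 39.6 and siGATA6_DEX 679 ± 41.3. In the second experiment the DMSO libraries held 484 ± 38.4 (SD, n = 4) and DEX_DMSO 519 ± 22.7, while BRM014 held 278 ± 54.9 and DEX_BRM014 295.0 ± 32.3. The siCtl_only libraries held 440 ± 16.9 and the siBRG1_siBRM libraries 273 ± 60.1 (SD, n = 4). Every BRM014 and siBRG1_siBRM library lay below every library of its control group. In the GATA6 experiment siCtl_DEX (649 to 682) lay above siCtl_Veh (612 to 636), while siGATA6_DEX (645 to 725) overlapped siGATA6_Veh (587 to 658). As a share of all regions held, both DEX groups lay above their vehicle groups. The shares were 0.573% to 0.584% against 0.537% to 0.564% with siCtl, and 0.563% to 0.577% against 0.541% to 0.547% with siGATA6. Those of DEX_DMSO and DMSO overlapped.

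**Figure D1:**
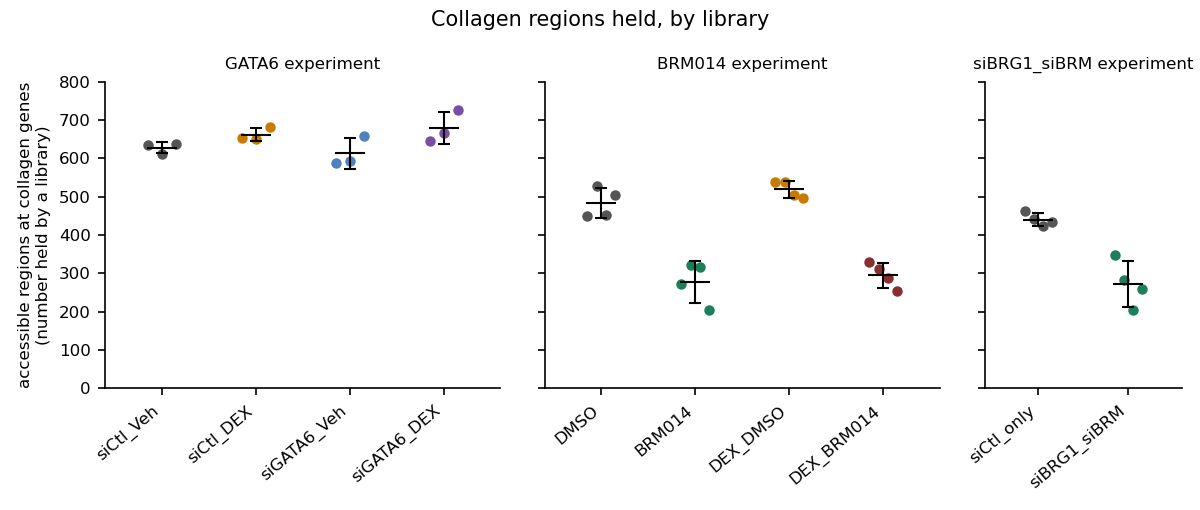
Number of accessible collagen regions held by each library (vertical axis) in the 10 groups of the 3 experiments (horizontal axis). Points are libraries, and the long and short bars give the mean ± SD. BRM014 libraries sit between 203 and 321 and DMSO libraries between 450 and 528.

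Without any drug, collagen genes with their flanks ranged from nearly closed to densely accessible. Per 100 kb of gene and flanks, the DMSO libraries held a median of 5.12 regions at a collagen and 5.08 at a protein-coding gene. The same medians were 6.88 against 6.20 in siCtl_Veh and 4.26 against 4.82 in siCtl_only. COL1A1, a chain of the main fibril of bone and skin, had the highest density of the family in DMSO at 15.5 ± 1.07 regions per 100 kb (SD, n = 4). COL9A3, a cartilage collagen of the kind that coats fibrils, followed with 11.8 ± 1.52, and COL16A1, another fibril-associated chain, with 11.7 ± 1.46. COL9A3 and COL16A1 differed by less than 1 SD, and COL1A1 stood apart from both in DMSO, whereas in siCtl_Veh COL9A3 had 18.9 ± 2.57 and COL1A1 15.6 ± 2.14 (SD, n = 3). COL11A2, COL15A1 and COL8A2 came next with 10.7 ± 0.624, 10.6 ± 0.509 and 10.0 ± 1.66. At the other end stood COL6A5 with 0.209 ± 0.241 and COL11A1 with 0.226 ± 0.288, which held 0 to 2 and 0 to 3 regions in every library of the series and were too sparse to test. COL25A1, a transmembrane collagen of neurons, had 0.589 ± 0.217, and COL19A1 0.729 ± 0.282. The paired type IV chains COL4A3 and COL4A4, known from the kidney's filtration membrane, had 2.00 ± 0.462 and 1.18 ± 0.434, below the 4.74 ± 0.968 and 5.23 ± 0.885 of the widespread pair COL4A1 and COL4A2. These densities count the flanks as well as the gene. At COL1A1 the gene made up 17531 bases of a window of 117.531 kb. It made up 126881 bases of 226.881 kb at COL15A1 and 493934 bases of 593.934 kb at COL25A1. The parts of gene length and of neighbouring genes in this ranking were not tested.

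The start of a collagen gene was open in every library at a minority of the family. RefSeq (GRCh38.p14) start windows, 250 bases before to 50 after a gene's start, were matched for 32 of the 44 genes; those of COL1A1, COL1A2, COL2A1, COL3A1, COL5A2, COL6A1, COL6A5, COL8A1, COL9A3, COL14A1, COL20A1 and COL22A1 were not used here. A peak lay on the start of COL4A1, COL4A2, COL4A5, COL5A1, COL6A2, COL12A1 and COL27A1 in 36 of 36 libraries. That is 7 of 32 collagens, or 21.9%, against 48.5% of 15812 protein-coding start windows. No library had a peak on the start of COL6A3, COL6A6, COL9A1, COL9A2, COL11A1, COL11A2, COL16A1, COL17A1, COL19A1 or COL26A1, which is 31.2% of the windows against 30.5% of all genes. The remaining 15 collagens, 46.9% against 20.9% of all genes, had a peak on the start in some libraries and not in others. Starts open in every library had a median GC content of 74.0% and starts with no peak 64.7%, and over all genes the same medians were 66.0% and 51.3%. The type IV genes lie head to head, with 126 bases between the starts of COL4A1 and COL4A2, 379 between COL4A6 and COL4A5 and 418 between COL4A4 and COL4A3, so 1 peak can cover both starts.

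The stretches just upstream of 5 starts are shown as examples of starts without and with a peak in the BRM014 libraries. COL13A1 and COL8A2 had starts that were open in DMSO and in no BRM014 library, as had COL4A4, which is not shown. The starts of COL12A1, COL5A1 and the COL4A1 side of the COL4A1 and COL4A2 pair were open in every library. Each is printed 5′ to 3′ on the gene's own strand, up to the base before the start, from RefSeq (GRCh38.p14): COL13A1 at chr10:69801656-69801905, plus strand, COL8A2 at chr1:36125223-36125472, minus strand, COL12A1 at chr6:75206054-75206303, minus strand, COL5A1 at chr9:134641553-134641802, plus strand, and the 126 bases between the type IV starts at chr13:110307158-110307283, minus strand. Capitals mark matches to the GC box GGGCGG, the CCAAT box CCAAT or the TEAD motif GGAATG on either strand.
COL13A1: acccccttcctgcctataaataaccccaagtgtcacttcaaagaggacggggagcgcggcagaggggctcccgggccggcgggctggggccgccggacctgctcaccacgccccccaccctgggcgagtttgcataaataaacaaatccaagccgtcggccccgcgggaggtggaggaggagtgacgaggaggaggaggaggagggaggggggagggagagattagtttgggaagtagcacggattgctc
COL8A2: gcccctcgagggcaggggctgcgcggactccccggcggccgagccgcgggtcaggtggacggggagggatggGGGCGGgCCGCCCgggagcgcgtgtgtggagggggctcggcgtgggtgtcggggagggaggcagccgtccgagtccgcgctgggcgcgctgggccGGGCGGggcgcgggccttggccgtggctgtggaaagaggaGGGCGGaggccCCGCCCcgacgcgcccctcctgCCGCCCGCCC
COL12A1: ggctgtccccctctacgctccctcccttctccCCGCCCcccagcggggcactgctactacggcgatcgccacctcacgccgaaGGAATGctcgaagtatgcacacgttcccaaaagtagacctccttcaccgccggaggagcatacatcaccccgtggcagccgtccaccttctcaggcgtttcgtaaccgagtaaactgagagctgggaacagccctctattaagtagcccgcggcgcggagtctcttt
COL5A1: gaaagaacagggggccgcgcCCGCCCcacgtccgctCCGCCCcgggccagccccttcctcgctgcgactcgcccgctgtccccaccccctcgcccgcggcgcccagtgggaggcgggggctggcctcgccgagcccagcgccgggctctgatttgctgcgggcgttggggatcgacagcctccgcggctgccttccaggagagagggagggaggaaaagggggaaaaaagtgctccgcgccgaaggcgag
COL4A1: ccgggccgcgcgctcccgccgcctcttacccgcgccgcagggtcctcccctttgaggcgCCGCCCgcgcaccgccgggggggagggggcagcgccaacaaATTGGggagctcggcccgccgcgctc
COL13A1's stretch held no match to any motif searched, and that of COL8A2 held the most GC boxes of those shown, 7, in a stretch with 82.0% GC. The stretch of COL4A4 held no match to any motif searched either. Of the 250 bases before each start, searched on both strands, 18 of 32 collagens (56.2%) held a GC box, against 56.0% of all start windows. The CCAAT box was found in 9 (28.1%, against 34.4%), the GATA motif AGATAA in 3 (9.38%, against 6.84%), the TEAD motif in 1, COL12A1 (3.12%, against 10.1%), and the AP-1 motif TGANTCA in none (against 5.05%). Matches may overlap one another, as the last pair of GC boxes at COL8A2 does, and a TEAD match can share bases with a CCAAT match. A match is a run of letters, not a binding site.

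Start peaks of some collagens were absent with BRM014, while those of others were found in every library. COL13A1, a transmembrane collagen of the neuromuscular junction, had a region on its start (chr10:69801764-69802125, hg38) in 4 of 4 DMSO, 4 of 4 DEX_DMSO and 4 of 4 siCtl_only libraries and in all 12 libraries of the GATA6 experiment. The same region was held by 0 of 4 BRM014, 0 of 4 DEX_BRM014 and 0 of 4 siBRG1_siBRM libraries, so the groups did not overlap in any of the 3 comparisons. COL4A4's start was covered in 4 of 4 DMSO and 0 of 4 BRM014 libraries, in 4 of 4 DEX_DMSO and 1 of 4 DEX_BRM014, and in 4 of 4 siCtl_only and 1 of 4 siBRG1_siBRM. COL8A2, a network collagen of the cornea's inner membrane, went from 4 of 4 DMSO to 0 of 4 BRM014 libraries, but only 2 of 4 DEX_DMSO and 1 of 4 siCtl_only libraries had the peak to lose. COL15A1's start was covered in 4 of 4 libraries of each control group and in 1 of 4 of each treated group. By the strict rule, all control libraries with a peak and no treated library, 3 of 32 collagen start windows were lost with BRM014, 1 with BRM014 and DEX and 1 with siBRG1_siBRM, where 1.4%, 1.3% and 0.563% of all start windows were lost. No collagen start was gained with BRM014 alone or with siBRG1_siBRM.

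**Figure D2:**
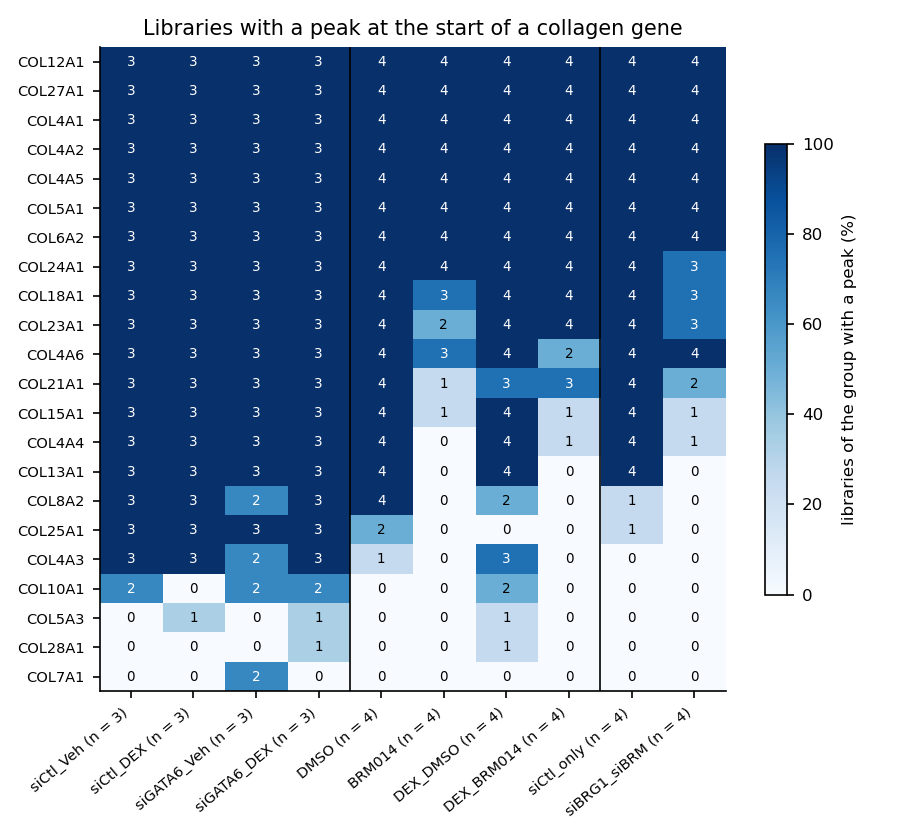
Number of libraries with a peak on the start window of 22 collagen genes (rows) in the 10 groups (columns), with colour giving the share of the group's libraries in percent. The 10 matched collagens with no peak in any library are left out. COL13A1 reads 4 in the DMSO, DEX_DMSO and siCtl_only columns and 0 in the BRM014, DEX_BRM014 and siBRG1_siBRM columns.

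Over whole genes and their flanks, most collagens held fewer accessible regions with BRM014 or siBRG1_siBRM. Scaled to each library's own total of regions, more collagens were called higher than lower, as were more of all genes. On that scale 13 of 41 collagens were higher and 7 lower with BRM014, where 46.2% and 7.17% of all genes were. A region was called lost when every control library and no treated library held it, gained in the reverse case, and kept when all held it. With BRM014, 86 of 1083 collagen regions were lost (7.94%, where 8.39% of all regions were lost) and 0 gained (0.0321% of all regions were gained). With BRM014 and DEX, 99 were lost (9.14%, against 9.21%) and 2 gained (0.0632% of all were gained). The siBRG1_siBRM cells lost 41 of 694 (5.91%, against 6.61%) and gained 0 (0.0272% of all were gained), and without siBRG1_siBRM replicate 1 there were 67 lost and 1 gained. With equal numbers of best peaks taken from each library, 26 of 389 collagen regions were lost with BRM014 (6.68%, against 6.16% of all) and 3 gained (1.51% of all). On that basis 23 were lost with BRM014 and DEX (5.91%, against 6.77%) and 10 gained (1.86% of all). With siBRG1_siBRM 12 of 311 were lost (3.86%, against 4.33%) and 4 gained (1.28% of all). The shares lost lie close to those of the whole genome, so the family as a whole was not set apart by lost regions. Kept collagen regions numbered 177, 193 and 170 (16.7%, 18% and 22.4% of all regions were kept). A lost region was found at 31 of 44 collagens with BRM014 (70.5%, against 53.1% of all genes), 33 with BRM014 and DEX (75.0%, against 56.3%) and 20 with siBRG1_siBRM (45.5%, against 37%). A gained one was found at 0, 2 and 0 collagens (0.923%, 1.39% and 0.226% of all genes). Collagen genes also hold more regions each, with a median of 10.2 in DMSO against 7.5 for all genes, and the part of that in these gene counts was not tested.

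The number of regions a gene holds was then compared with limma on log2(regions + 0.5), for genes with a mean of at least 2 regions and with Benjamini-Hochberg adjustment over all genes tested. COL6A5 and COL11A1 fell under that filter in all experiments, COL9A1 also in the BRM014 experiment, and COL6A6, COL9A1, COL19A1 and COL25A1 also in the siBRG1_siBRM experiment. With BRM014, 36 of 41 collagens were called lower and 0 higher (65% of 17454 genes were lower and 0.0516% higher), and the median log2 difference was −0.79 at collagens and −0.52 over all genes, while per 100000 regions held 13 collagens were higher and 7 lower (46.2% and 7.17% of all genes) with medians of 0.06 and 0.34. With BRM014 and DEX, 36 of 41 were lower and 0 higher (64.6% and 0.0344% of all) with medians of −0.79 and −0.52, and per 100000 held 13 were higher and 6 lower (46.6% and 7.34%) with medians of 0.07 and 0.34. With siBRG1_siBRM, 28 of 38 were lower and 0 higher (52.5% and 0.0814% of 17204 genes) with medians of −0.64 and −0.51, and per 100000 held 8 were higher and 3 lower (32.8% and 5.51%) with medians of 0.17 and 0.29. When the same number of best peaks was taken from each library, 3 of 36 collagens were higher and 7 lower with BRM014 (15.8% and 10.6% of all genes), 8 and 5 of 36 with BRM014 and DEX (19.4% and 11%), and 2 and 2 of 34 with siBRG1_siBRM (9.48% and 4.45%). The 28 calls of the siRNA comparison became 16, 15, 18 and 18 without siCtl_only replicate 1, 2, 3 or 4 and 18 without siBRG1_siBRM replicate 4. Thus the scaling moved the median of all genes by more than 0.1, and each direction below is relative to the scale named beside it. Groups did not overlap, with every treated library lower, at 25 of 41 collagens with BRM014 (43.2% of all genes), 29 with BRM014 and DEX (48.9%) and 18 of 38 with siBRG1_siBRM (37.1%). An exact two-sided permutation test per gene over 4 against 4 libraries cannot go below p = 0.0286 and called none after adjustment, with smallest adjusted values of 0.0661, 0.0585 and 0.0769.

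**Figure D3:**
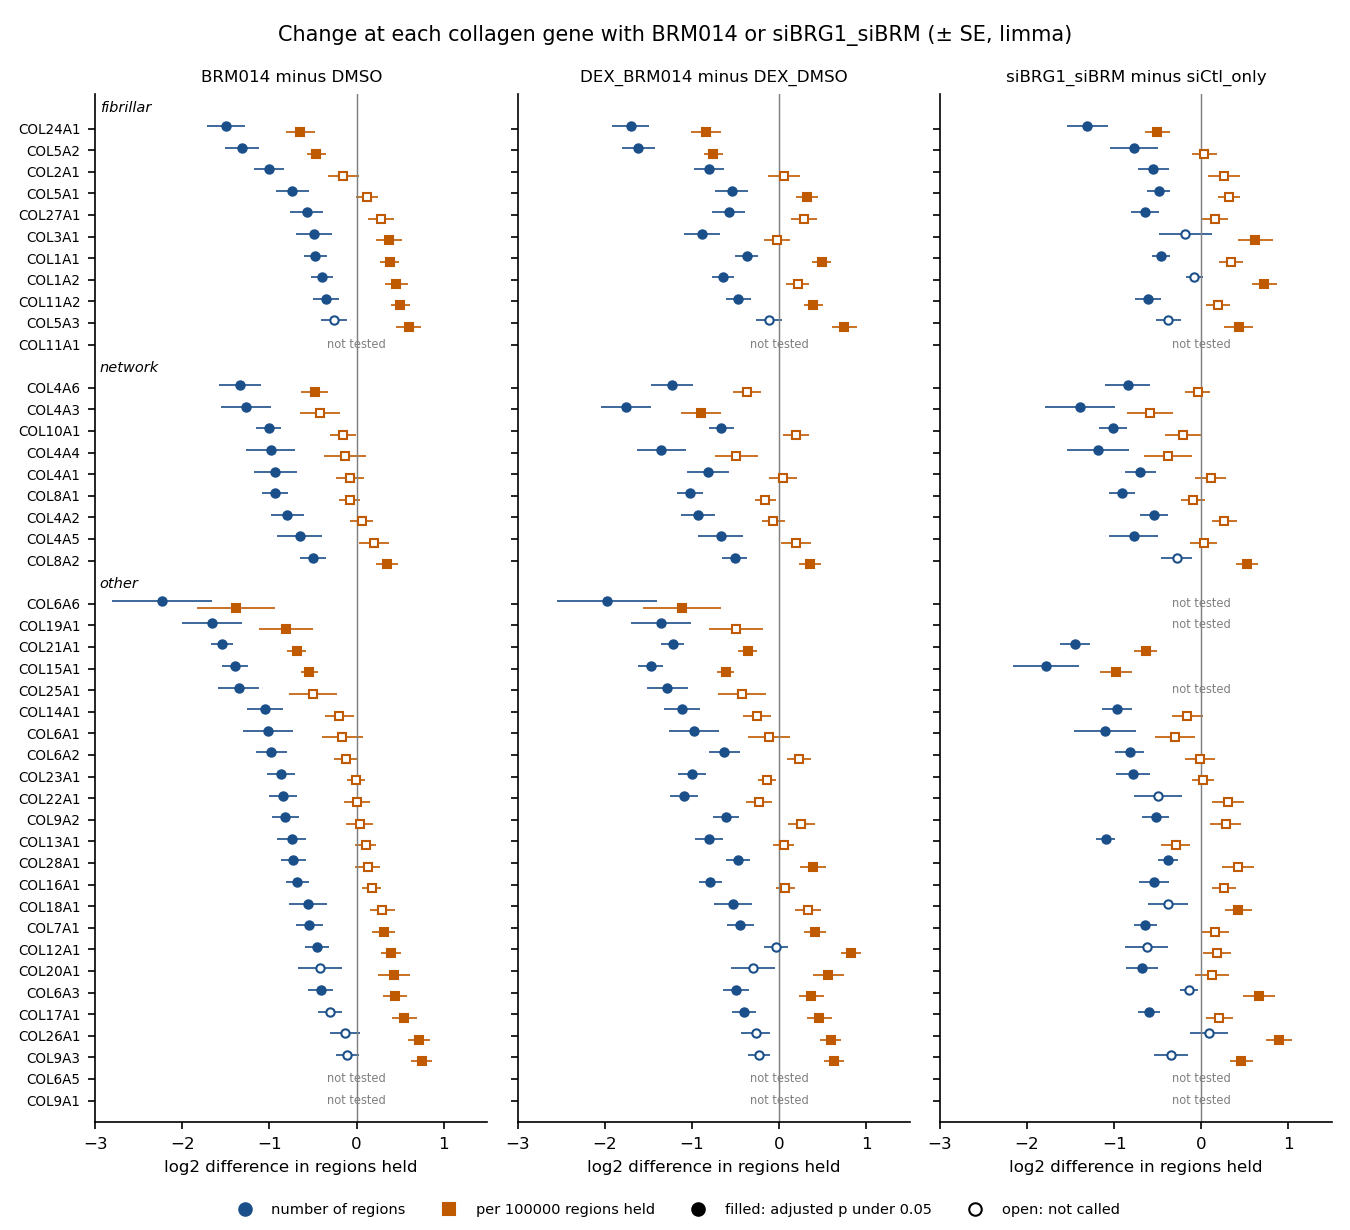
Log2 difference in regions held (horizontal axis) for each collagen gene (rows, by class) in the 3 SWI/SNF comparisons, as number of regions (blue circles) and per 100000 regions held (orange squares), with bars for ± SE. Filled symbols have an adjusted p under 0.05 in limma. By number 36, 36 and 28 collagens are called lower and none higher, while per 100000 regions held 13, 13 and 8 are called higher and 7, 6 and 3 lower.

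The chains of the main stromal fibrils, types I and III, were called lower by number with BRM014 and higher per 100000 regions held. Of these chains only COL1A1 was also higher per 100000 held with BRM014 and DEX (0.49, with 0.22 at COL1A2 and −0.02 at COL3A1 not called). COL1A1 held 17, 20, 18 and 18 regions in the DMSO libraries and 11, 16, 16 and 10 in the BRM014 libraries, a log2 difference of −0.48 (limma, SE 0.13, adjusted p = 0.00536), which turned to 0.38 (adjusted p = 0.00448) per 100000 regions held. With DEX it held 17, 18, 17 and 17 against 12, 15, 13 and 13, and 17, 16, 17 and 14 in siCtl_only against 13, 12, 10 and 11 in siBRG1_siBRM. COL1A1 groups did not overlap in any of the 3 pairs, and its difference with BRM014 lay near the medians of all genes on both scales. COL1A2, the partner chain of the type I trimer, held 9, 10, 10 and 11 in DMSO and 7, 9, 7 and 7 in BRM014, with 14, 12, 12 and 9 and 7, 8, 7 and 7 in DEX_DMSO and DEX_BRM014. It held 10, 9, 9 and 9 in siCtl_only and 10, 9, 8 and 8 in siBRG1_siBRM, a log2 difference of −0.08 (limma, adjusted p = 0.468) that was not called. Per 100000 held it was called higher there (0.72, limma adjusted p = 0.00275). COL3A1, the fibrillar chain of vessel walls and young stroma, held 7, 7, 7 and 8 in DMSO and 5, 7, 6 and 3 in BRM014, so the groups overlapped at 7 (−0.48, limma adjusted p = 0.0496, and 0.37 per 100000 held). With DEX it held 9, 9, 8 and 8 against 6, 4, 5 and 3, and in the siRNA experiment 6, 8, 5 and 5 against 8, 4, 3 and 7, which was not called by number (−0.18, limma adjusted p = 0.586) and was called higher per 100000 held (0.62, adjusted p = 0.0198).

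The type V chains, which set the diameter of type I fibrils, differed in their values. COL5A2 held 25, 33, 33 and 31 regions in DMSO and 11, 15, 15 and 8 in BRM014, and 30, 30, 28 and 32 in DEX_DMSO against 14, 9, 7 and 9 in DEX_BRM014. The log2 differences were −1.32 (SE 0.19, adjusted p = 5.31e-05) and −1.61 (SE 0.19, adjusted p = 8.23e-06) in limma, and per 100000 held they were still lower at −0.46 and −0.75, although with equal numbers of best peaks −0.10 and −0.19 were not called. No collagen lost more regions with BRM014 and DEX, 13 of 67, and with BRM014 alone it shared the highest count, 8, with COL15A1. In the siRNA experiment COL5A2 held 24, 22, 18 and 24 in siCtl_only and 23, 12, 9 and 10 in siBRG1_siBRM, where the first siBRG1_siBRM library lay within the controls (−0.77, limma adjusted p = 0.0439, and 0.03 per 100000 held), and without the filter on low genes the adjusted p was 0.0533. COL5A1, the chain mutated in classical Ehlers-Danlos syndrome, held 21, 23, 18 and 21 in DMSO, 15, 14, 15 and 7 in BRM014, 22, 20, 19 and 19 in siCtl_only and 17, 16, 12 and 12 in siBRG1_siBRM. Its groups did not overlap in either pair, and per 100000 held the differences were 0.12 and 0.32, neither of them called. COL5A1 was called higher per 100000 held with BRM014 and DEX (0.32, limma adjusted p = 0.0375). COL5A3 held 5, 6, 5 and 7 in DMSO and 4, 5, 6 and 4 in BRM014, was not called by number (−0.26, limma adjusted p = 0.139). Per 100000 held it was called higher in all 3 comparisons.

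COL24A1, a fibrillar collagen of developing bone, was among the most changed of the family. It held 14, 16, 14 and 16 regions in DMSO and 3, 5, 8 and 5 in BRM014, 15, 17, 19 and 14 in DEX_DMSO and 7, 4, 4 and 4 in DEX_BRM014, and 15, 15, 13 and 14 in siCtl_only and 9, 6, 4 and 4 in siBRG1_siBRM. Every treated library was below every control library in all 3 comparisons. By number, COL24A1 differed by −1.50, −1.70 and −1.31 (limma, adjusted p = 4.69e-05, 1.38e-05 and 0.0073), and −0.64, −0.84 and −0.50 per 100000 held, also called. With the same number of best peaks taken from each library they were −0.52, −0.12 and −0.14 and no longer called. The cartilage fibril genes had smaller differences. COL2A1 held 6, 5, 6 and 7 in DMSO and 3, 3, 3 and 2 in BRM014, and 5, 6, 5 and 5 in siCtl_only and 5, 3, 3 and 3 in siBRG1_siBRM, and was called lower by number in all 3 comparisons but in none per 100000 held. COL11A2 held 13, 15, 14 and 14 in DMSO against 12, 12, 12 and 8 in BRM014 and 12, 14, 11 and 11 in siCtl_only against 9, 9, 6 and 7 in siBRG1_siBRM, lower by number and, with BRM014, higher per 100000 held (0.50, limma adjusted p = 6.49e-04). COL27A1, needed for growth-plate cartilage, held 11, 15, 13 and 14 in DMSO against 10, 9, 9 and 7 in BRM014 and 12, 9, 9 and 10 in siCtl_only against 8, 6, 5 and 6 in siBRG1_siBRM. By class, 9 of 10 fibrillar collagens were called lower by number with BRM014 (median −0.53), 9 of 10 with BRM014 and DEX (−0.61) and 7 of 10 with siBRG1_siBRM (−0.52). Of all genes 65%, 64.6% and 52.5% were lower by number. Per 100000 held 5 fibrillar collagens were higher and 2 lower, 4 and 2, and 3 and 1. On that scale 46.2%, 46.6% and 32.8% of all genes were higher and 7.17%, 7.34% and 5.51% lower.

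The network collagens, led by the basement membrane chains, had the lowest medians of the 3 classes by number and medians near 0 per 100000 held. All 9 were called lower with BRM014 (median −0.93) and with BRM014 and DEX (−0.93), and 8 of 9 with siBRG1_siBRM (−0.84). By number 65%, 64.6% and 52.5% of all genes were lower. Per 100000 held the medians were −0.08, −0.07 and −0.04, with 1 higher in each comparison and 1, 1 and 0 lower. In the BRM014 experiment COL4A1 and COL4A2 shared 19 regions, COL4A3 and COL4A4 shared 5, and COL4A5 and COL4A6 shared 10. The chains of these pairs were thus not measured independently. In the same order of comparisons, 9.55%, 8.54% and 6.4% of network regions were lost, against 8.39%, 9.21% and 6.61% of all regions. With BRM014 and DEX the fibrillar class lost more, 12.1% of its regions. COL4A1, a chain of nearly all basement membranes, held 9, 15, 13 and 12 in DMSO and 6, 7, 8 and 4 in BRM014, and 16, 10, 12 and 11 and 10, 8, 6 and 4 in the DEX_DMSO and DEX_BRM014 libraries. In the siRNA experiment it held 9, 7, 7 and 11 against 5, 6, 4 and 5, and only the DEX pair overlapped, at 10 regions. COL4A2, its partner, held 12, 17, 17 and 18 in DMSO, 9, 10, 10 and 7 in BRM014, 16, 14, 11 and 15 in siCtl_only and 12, 8, 8 and 10 in siBRG1_siBRM. By number the type IV pair was lower with BRM014 by −0.93 and −0.79 (limma, adjusted p = 0.00409 and 0.00233), but per 100000 held the values were −0.08 and 0.06, neither called.

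The other network chains were called lower by number too, apart from COL8A2 with siBRG1_siBRM. COL4A6 held 13, 18, 15 and 15 in DMSO, 7, 7, 7 and 3 in BRM014, 17, 15, 18 and 16 in DEX_DMSO and 9, 7, 8 and 4 in DEX_BRM014, with no overlap, and 14, 12, 11 and 14 in siCtl_only against 11, 7, 4 and 7 in siBRG1_siBRM. Its difference with BRM014 was −1.34 by number and −0.48 per 100000 held (limma, adjusted p = 2.63e-04 and 0.0128). Per 100000 held COL4A6 was not called with BRM014 and DEX (−0.37, limma adjusted p = 0.0506) or with siBRG1_siBRM (−0.04, adjusted p = 0.846), and with equal numbers of best peaks it was −0.27 with BRM014 and 0.14 with BRM014 and DEX, neither called. COL4A3 held 4, 6, 4 and 6 in DMSO against 1, 2, 4 and 1 in BRM014, 7, 10, 9 and 9 in DEX_DMSO against 2, 3, 2 and 2 in DEX_BRM014, and 5, 7, 6 and 5 in siCtl_only against 5, 2, 1 and 1 in siBRG1_siBRM. Only with DEX was COL4A3 called lower on both scales (−1.76 and −0.89, limma adjusted p = 1.04e-04 and 0.00222), and the interaction of DEX with BRM014, given below, was not called at it. COL4A4 held 2, 5, 3 and 4 in DMSO against 1, 2, 2 and 1 in BRM014, and COL4A5, mutated in Alport syndrome, 9, 12, 9 and 11 against 7, 8, 9 and 3. In the siRNA experiment COL4A4 held 4, 4, 4 and 4 against 4, 1, 1 and 1 and COL4A5 11, 13, 11 and 11 against 12, 6, 4 and 6, and in both genes the first siBRG1_siBRM library was as high as the controls. COL8A1, a network collagen of vessels and cornea, held 15, 20, 15 and 14 in DMSO and 8, 11, 8 and 6 in BRM014, and 18, 15, 14 and 16 in siCtl_only and 9, 9, 6 and 9 in siBRG1_siBRM, with no overlap. COL8A2 held 13, 14, 10 and 15 against 8, 10, 10 and 8 and was higher per 100000 held in all 3 comparisons (0.35, 0.36 and 0.52), the only network gene so called. COL10A1, the collagen of hypertrophic cartilage, held 7, 8, 7 and 8 in DMSO against 3, 4, 4 and 3 in BRM014 and 6, 5, 5 and 6 in siCtl_only against 3, 2, 2 and 3 in siBRG1_siBRM.

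Among the other classes, COL15A1 and COL21A1 were called lower in all 3 comparisons by number, per 100000 regions held and with equal numbers of best peaks. The share of all genes called lower in all these ways was not counted. COL15A1, a multiplexin that bridges basement membranes to the fibrils beneath them, held 23, 25, 25 and 23 regions in DMSO and 10, 10, 10 and 6 in BRM014. It held 25, 27, 26 and 27 in DEX_DMSO and 11, 10, 9 and 7 in DEX_BRM014, and 29, 23, 24 and 20 in siCtl_only and 14, 6, 3 and 7 in siBRG1_siBRM. In each of the 3 comparisons every treated library lay below every control library. The log2 differences of COL15A1 were −1.39, −1.47 and −1.78 in the 3 comparisons (limma, SE 0.15, 0.15 and 0.38, adjusted p = 3.37e-06, 1.90e-06 and 0.011). Per 100000 held the differences were −0.54, −0.61 and −0.98, all called, and with equal numbers of best peaks COL15A1 was called in all 3 too, at −1.01 with BRM014 and −1.10 with siBRG1_siBRM. COL21A1, a fibril-associated collagen of vessel walls, held 20, 24, 17 and 21 in DMSO and 7, 7, 8 and 5 in BRM014, 20, 20, 18 and 17 in DEX_DMSO and 8, 8, 8 and 7 in DEX_BRM014, and 18, 16, 18 and 21 in siCtl_only and 9, 6, 5 and 6 in siBRG1_siBRM. At COL21A1, too, every treated library lay below every control library of its own comparison. COL21A1 differed by −1.54, −1.22 and −1.45 (limma, SE 0.13, 0.13 and 0.17, adjusted p = 4.51e-07, 2.71e-06 and 0.0034), by number, and was called lower per 100000 held (−0.69, −0.36 and −0.64) and with equal numbers of best peaks (−0.70, −0.39 and −0.88). COL18A1, the other multiplexin and the source of endostatin, overlapped its controls in all 3 comparisons. It held 18, 19, 17 and 19 in DMSO and 12, 21, 11 and 8 in BRM014, where replicate 2 exceeded every control, and 21, 23, 21 and 18 in DEX_DMSO and 16, 18, 14 and 10 in DEX_BRM014. In siBRG1_siBRM it held 15, 15, 8 and 17 against 19, 19, 18 and 14 in siCtl_only, not called by number (−0.38, limma adjusted p = 0.172) and higher per 100000 held (0.43, adjusted p = 0.0343).

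**Figure D4:**
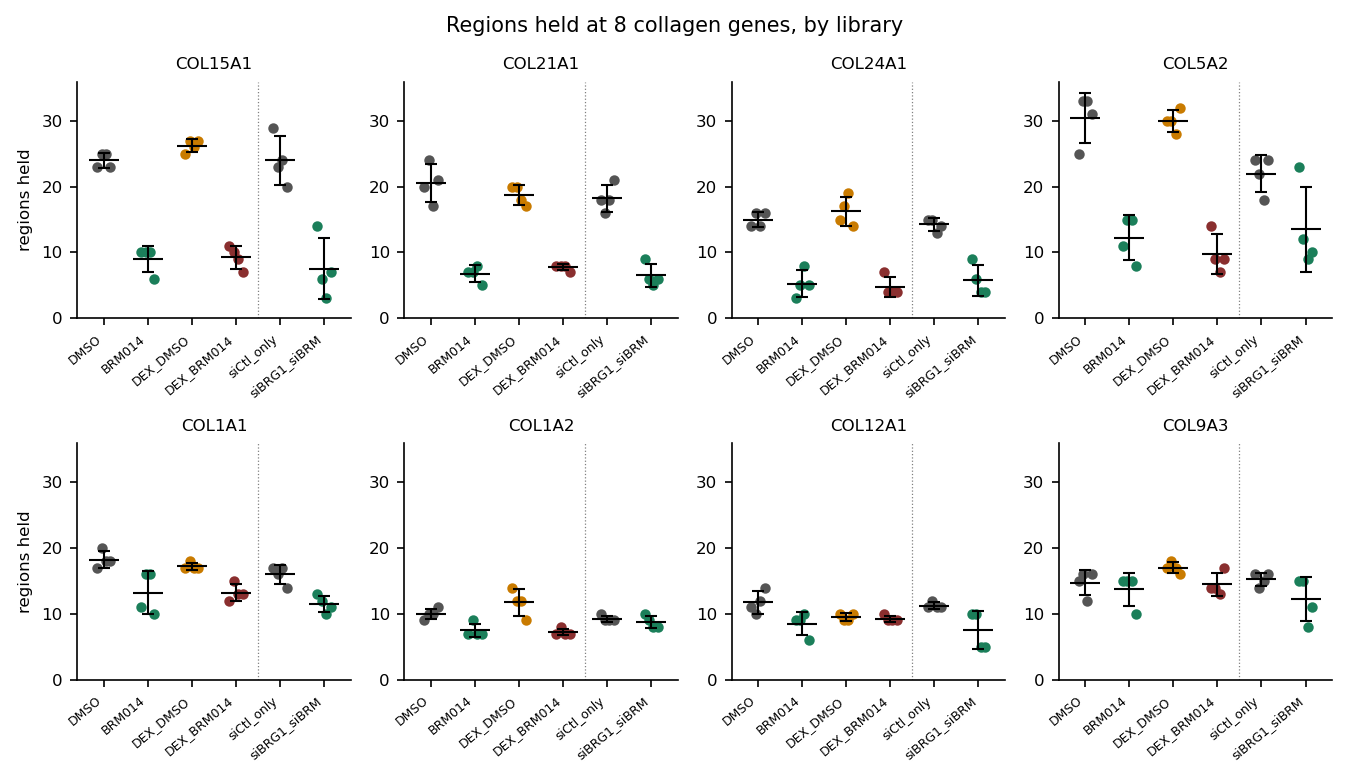
Regions held (vertical axis, same scale in every panel) at 8 collagen genes in the 6 groups of the BRM014 and siBRG1_siBRM experiments, separated by the dotted line. Points are libraries and bars give the mean ± SD (n = 4). Treated libraries of COL15A1, COL21A1 and COL24A1 lie below all controls, while those of COL9A3 and COL1A2 overlap them in some pairs.

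By number, the remaining fibril-associated collagens ranged from called lower in every comparison to called in none. COL12A1, which binds type I fibrils under tension, held 11, 10, 12 and 14 in DMSO and 9, 9, 10 and 6 in BRM014, and was called lower by number (−0.46) and higher per 100000 held (0.40). With DEX it held 10, 9, 9 and 10 against 10, 9, 9 and 9, a difference of −0.04 (limma, adjusted p = 0.813) that was not called, and per 100000 held it was higher by 0.83. Its siRNA values were 11, 12, 11 and 11 in siCtl_only and 10, 10, 5 and 5 in siBRG1_siBRM, not called on either scale. COL14A1, a close relative of COL12A1, held 13, 14, 13 and 13 in DMSO and 5, 8, 7 and 5 in BRM014, and 10, 12, 8 and 9 in siCtl_only and 6, 4, 5 and 4 in siBRG1_siBRM, with no overlap. COL16A1 held 15, 20, 17 and 19 in DMSO, 9, 13, 13 and 9 in BRM014, 18, 19, 20 and 20 in DEX_DMSO and 11, 12, 12 and 9 in DEX_BRM014, and with DEX it lost 6 of 28 regions. COL22A1, a collagen of muscle and tendon junctions, held 8, 7, 7 and 8 in DMSO and 5, 4, 4 and 3 in BRM014, but was not called with siBRG1_siBRM on either scale (10, 6, 5 and 8 against 7, 5, 3 and 5). COL9A2, a cartilage chain, held 8, 7, 10 and 8 in DMSO against 4, 4, 6 and 4 in BRM014, and COL9A3, its partner, 15, 16, 12 and 16 against 15, 15, 15 and 10. COL9A3 was not called by number in any of the 3 comparisons (−0.11, −0.23 and −0.35) and was called higher per 100000 held in all 3 (0.75, 0.63 and 0.46). COL20A1 held 8, 7, 7 and 7 in DMSO and 6, 6, 7 and 3 in BRM014 and was called lower by number with siBRG1_siBRM alone (7, 7, 6 and 5 against 4, 3, 3 and 5). COL19A1 had few regions, 3, 5, 2 and 3 in DMSO and 1, 1, 1 and 0 in BRM014, and was lower on both scales (−1.66 and −0.81, limma adjusted p = 8.43e-04 and 0.031). COL19A1 was lower by number with BRM014 and DEX (−1.35, limma adjusted p = 0.00339) and not called per 100000 held (−0.49, adjusted p = 0.18).

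Beaded-filament and anchoring-fibril genes were mostly called lower by number. COL6A1, a chain of the microfibrils around cells, held 7, 6, 6 and 7 in DMSO, 3, 2, 6 and 2 in BRM014, 5, 7, 6 and 8 in siCtl_only and 4, 4, 1 and 3 in siBRG1_siBRM. COL6A2 held 9, 13, 8 and 9 in DMSO against 5, 6, 5 and 3 in BRM014, and COL6A3, the longest type VI chain, 6, 10, 9 and 11 against 6, 7, 7 and 6. COL6A3 was lower by number with BRM014 (−0.41) and with BRM014 and DEX (−0.49), not called with siBRG1_siBRM (−0.14), and higher per 100000 held in all 3 (0.44, 0.37 and 0.66). COL6A6 held 4, 4, 3 and 6 in DMSO and 0, 2, 1 and 0 in BRM014 and 5, 5, 3 and 3 in DEX_DMSO and 2, 2, 0 and 0 in DEX_BRM014, so its large log2 differences of −2.24 and −1.97 (limma, SE 0.58) rest on a few regions. COL28A1 held 12, 8, 10 and 13 in DMSO and 7, 7, 6 and 5 in BRM014. COL7A1, the anchoring fibril of skin, held 10, 10, 9 and 10 in DMSO and 6, 10, 6 and 5 in BRM014, with 11, 11, 9 and 9 in siCtl_only and 7, 6, 5 and 7 in siBRG1_siBRM. By number it was lower in all 3 comparisons (−0.54, −0.45 and −0.64), whereas per 100000 held it was higher in the 2 BRM014 comparisons (0.31 and 0.41) and not called with siBRG1_siBRM (0.16).

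Of the membrane-spanning collagens, COL13A1 lost 4 of 23 regions with siBRG1_siBRM, among them the one on its start. It held 12, 16, 12 and 14 in DMSO and 9, 9, 9 and 5 in BRM014, 16, 18, 13 and 16 in DEX_DMSO and 9, 9, 9 and 8 in DEX_BRM014, and 12, 14, 16 and 14 in siCtl_only and 6, 7, 6 and 6 in siBRG1_siBRM, with no overlap in any pair. The siBRG1_siBRM difference was −1.10 (limma, SE 0.11, adjusted p = 0.0025) by number and −0.29, not called, per 100000 held. COL17A1, the hemidesmosome collagen of epithelia, held 10, 12, 8 and 7 in DMSO and 7, 7, 8 and 7 in BRM014 and was not called by number (−0.31, limma adjusted p = 0.0618), although per 100000 held it was higher (0.55). With DEX it held 11, 12, 11 and 10 against 9, 9, 8 and 7, and in the siRNA experiment 10, 10, 12 and 13 against 8, 7, 6 and 8, lower by number in both, but with DEX higher per 100000 held (0.46). COL23A1 held 25, 33, 21 and 24 in DMSO and 13, 17, 16 and 10 in BRM014, and 29, 26, 27 and 21 in siCtl_only and 19, 17, 10 and 14 in siBRG1_siBRM. It was lower by number (−0.86 and −0.79) and not called per 100000 held (−0.01 and 0.02). COL25A1 held 4, 3, 2 and 5 in DMSO and 1, 1, 1 and 1 in BRM014. COL26A1, an unclassified member, was called by number in none of the 3 comparisons (9, 12, 10 and 10 in DMSO against 10, 11, 11 and 6 in BRM014) and higher per 100000 held in all 3. Of 38 collagens tested in all 3 comparisons, 26 were lower by number in all 3 (68.4%, against 37.7% of 17091 genes), and 3 of them, COL15A1, COL21A1 and COL24A1, on both scales (7.89%, against 2.56%). COL5A3, COL6A3, COL8A2, COL9A3 and COL26A1, 5 in all, were higher per 100000 held in all 3 (13.2%, against 24.1%). The BRM014 comparisons come from 1 experiment, and collagens hold more regions each, whose part in these counts was not tested.

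The collagen regions lost with BRM014 or siBRG1_siBRM ranked lower in the controls than those kept, which the rule for the calls itself favours. A kept region needs a peak in every treated library as well. Ranks of lost and kept regions were not taken over the whole genome. Ranked by −log10 q within each library, the 86 regions lost with BRM014 had a median percentile of 43.5 in DMSO and the 177 kept regions 77.2. With BRM014 and DEX the values were 39.6 and 77.3, and with siBRG1_siBRM 40.4 and 76.4. Some lost regions were strong all the same. Within COL18A1, chr21:45427700-45428056 stood at percentile 88.4 in DMSO and was held by 4 of 4 DMSO and 0 of 4 BRM014 libraries, but by 2 of 4 DEX_BRM014 and 3 of 4 siBRG1_siBRM libraries, so its loss was not repeated there. Downstream of COL4A2, chr13:110546883-110547268 (percentile 86.1) was held by 4 of 4 DMSO, DEX_DMSO and siCtl_only libraries, 0 of 4 BRM014 and DEX_BRM014 libraries and 1 of 4 siBRG1_siBRM libraries. Next by rank, chr21:45363968-45364423 upstream of COL18A1, was lost with BRM014 and held by 4 of 4 siBRG1_siBRM libraries. In the siRNA experiment the strongest was chrX:108167431-108167728 within COL4A6, at percentile 89.2, held by every control library of the series and by 0 of 4 BRM014, DEX_BRM014 and siBRG1_siBRM libraries. Next came COL13A1, with chr10:69864305-69864758 within the gene (85.9) and chr10:69769472-69769693 upstream of it (72.9), the latter held by 0 of 12 treated and 24 of 24 other libraries. With BRM014 and DEX, chr2:237354811-237355366 within COL6A3 was found in 4 of 4 DEX_DMSO libraries, in 0 of 4 with DEX_BRM014, but in 3 of 4 with BRM014 alone, and chr1:31689921-31690166 within COL16A1 in 4 of 4 DEX_DMSO libraries and in 0 of 4 with BRM014, with or without DEX. Exons and introns of these genes were not analysed here. By position, 3 of 19 collagen regions on a matched start, 54 of 638 inside genes (8.46%) and 29 of 426 outside them (6.81%) were lost with BRM014. The same shares were not taken over all regions.

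The inhibitor and the siRNA were measured in separate experiments with separate controls, and their lost collagen regions overlapped in part. Of the 41 collagen regions lost with siBRG1_siBRM, 33 (80.5%) overlapped a region lost with BRM014, and 32 of the 86 lost with BRM014 (37.2%) overlapped a region lost with siBRG1_siBRM. Over the whole genome these shares were 57.2% of 8503 and 30.5% of 15930 lost regions, and the difference between collagens and the genome was not tested. Scored in the other experiment, those 41 regions were held at 92.7% ± 1.99 in DMSO (SD, n = 4) and 4.27% ± 5.03 in BRM014, and at 89.6% ± 1.22 in DEX_DMSO and 9.76% ± 4.45 in DEX_BRM014. The 86 BRM014-lost regions were held at 79.7% ± 9.98 in siCtl_only and 12.8% ± 10.2 in siBRG1_siBRM. Most BRM014-lost collagen regions thus had no peak in most siBRG1_siBRM libraries. Collagen regions of every kind were fewer there, on average 273 in siBRG1_siBRM and 440 in siCtl_only, and 278 in BRM014 and 484 in DMSO. Lost regions also ranked lower in the controls than kept ones. The part of both in these shares was not tested, and lost regions of the whole genome were not scored in this way. Without and with DEX, BRM014 had 49 lost regions in common, which is 57.0% of 86 and 49.5% of 99, against 56.1% and 51.1% of all lost regions.

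After 2 h of DEX about as large a share of collagen regions was gained as of all regions, and COL23A1 was the only collagen called in limma. In control siRNA cells 30 of 1205 collagen regions were gained (2.49%, where 2.1% of all regions were gained) and 3 lost (0.249%, against 0.681%). In siGATA6 cells 28 were gained (2.32%, against 2.02%) and 3 lost (0.249%, against 0.509%). A gained region was found at 20 of 44 collagens in control siRNA cells (45.5%, against 22.3% of all genes) and at 17 in siGATA6 cells (38.6%, against 23.1%), and a lost one at 3 and 4 (7.53% and 5.86% of all genes). Collagens again held more regions each, with a median of 13.3 in siCtl_Veh against 9.33 over all genes, and the part of that in these gene counts was not tested. Of the 30 gained regions 23 lay inside genes (3.21% of 716), 7 outside (1.50% of 468) and 0 on a matched start (of 21). Shares by position were not taken over all regions, so this split is not shown to be particular to collagens. The 30 gained regions were weak, with a median −log10 q percentile of 28.7 in siCtl_DEX against 65.5 in siCtl_Veh for the 443 kept regions (38.3% of all regions were kept, and 425 collagen regions and 38.8% in siGATA6 cells). A kept region needs a peak in every library of both groups, so the rule itself favours stronger ones. Without siCtl_Veh replicate 3, siCtl_DEX replicate 1 or siCtl_DEX replicate 3, control siRNA cells gained 36, 46 and 40 collagen regions and lost 19, 6 and 12, and without siGATA6_DEX replicate 1 siGATA6 cells gained 43 and lost 6. The 30 and 28 gained regions had 13 in common (43.3% and 46.4%, against 51.8% and 53.9% of all gained regions).

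COL23A1, a membrane-spanning collagen that can be shed from the cell surface, held 31, 31 and 35 regions in siCtl_Veh and 45, 46 and 48 in siCtl_DEX. All 3 DEX libraries lay above all 3 vehicle libraries, and the gene rose on the log2 scale by 0.51 (limma, SE 0.0845, adjusted p = 0.0436), where 0.458% of all genes were called higher and 0.0327% lower (per 100000 regions held 0.50, with 0.796% and 0.218% of all genes). Leaving out any 1 library of the pair, or asking for −log10 q of at least 5, ended the call, with adjusted p between 0.0589 and 0.128 and of 0.397. In siGATA6 cells it held 31, 30 and 37 without DEX and 41, 45 and 47 with it (0.44, limma adjusted p = 0.0512, and 0.36 per 100000 held with an adjusted p of 0.025, where 0.382% of all genes were higher and 0.0436% lower). After 4 h of DEX it held 38, 41, 31 and 32 in DEX_DMSO against 25, 33, 21 and 24 in DMSO, overlapping at 31 to 33 (0.47, limma adjusted p = 0.345), and 20, 18, 16 and 16 in DEX_BRM014 against 13, 17, 16 and 10 in BRM014. COL18A1 held 24, 24 and 17 in siCtl_Veh and 25, 34 and 31 in siCtl_DEX, and 23, 21 and 22 in siGATA6_Veh and 28, 33 and 31 in siGATA6_DEX. Its groups did not overlap in either pair, but the differences of 0.47 and 0.47 were not called (limma, adjusted p = 0.194 and 0.152). COL18A1 gained 3 of 50 regions in control siRNA cells and 5 in siGATA6 cells, COL23A1 3 of 80 in each, COL21A1 3 of 55 and COL4A6 3 of 39 in control siRNA cells, and COL4A1 3 of 42 in siGATA6 cells. COL21A1 held 38, 33 and 35 in siCtl_Veh and 33, 34 and 39 in siCtl_DEX, and COL4A6 19, 19 and 23 and 23, 23 and 22, both overlapping. COL4A1 held 12, 14 and 19 in siGATA6_Veh and 17, 18 and 22 in siGATA6_DEX, also overlapping. In control siRNA cells COL4A1 held 13, 15 and 14 in siCtl_Veh and 18, 16 and 18 in siCtl_DEX, which did not overlap. Groups did not overlap, with DEX higher, at 5 of 42 collagens in each pair, where 7.69% and 10.8% of all genes did so, and with DEX lower at 1 in each (2.93% and 1.08% of all). In siGATA6 cells limma called no collagen by number with DEX (7 had an unadjusted p under 0.05, and 0.692% of all genes were called higher and 0.00545% lower), and the exact permutation test, which cannot go below p = 0.1 with 3 against 3, called none in either pair.

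Among the DEX-gained collagen regions, those with the best ranks were chr17:50184604-50185172 within COL1A1, chr21:45432762-45433447 within COL18A1 and chr7:7562744-7563280 upstream of COL28A1. The COL1A1 region was held by 0 of 3 siCtl_Veh, 3 of 3 siCtl_DEX, 1 of 3 siGATA6_Veh and 3 of 3 siGATA6_DEX libraries. It was held by 1 of 4 DMSO, 4 of 4 DEX_DMSO, 2 of 4 BRM014 and 4 of 4 DEX_BRM014 libraries, so with DEX it was found whether or not the inhibitor was there. The COL18A1 region was found in 0 of 4 DMSO, 4 of 4 DEX_DMSO and 0 of 4 DEX_BRM014 libraries, as was the COL28A1 region. A second region upstream of COL28A1, chr7:7553395-7553735, was first by rank in siGATA6 cells (0 of 3 against 3 of 3), and in the BRM014 experiment it was held by 2 of 4 DMSO, 4 of 4 DEX_DMSO, 0 of 4 BRM014 and 4 of 4 DEX_BRM014 libraries. Next by rank was chr10:69911627-69911874 within COL13A1, held by 0 of 3 siGATA6_Veh, 3 of 3 siGATA6_DEX, 3 of 4 DEX_DMSO and 0 of 4 DEX_BRM014 libraries. The best-ranked lost region of control siRNA cells was chr1:86061599-86061964 within COL24A1, held by 3 of 3 siCtl_Veh and 0 of 3 libraries of each other group of that experiment, so it was lost with siGATA6 in vehicle too.

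The 30 collagen regions gained after 2 h of DEX were scored in the separate BRM014 experiment. There, part of them were open after 4 h of DEX, and fewer when BRM014 was present. The DMSO libraries held 2.50% ± 1.67 of them (SD, n = 4), the DEX_DMSO libraries 40.8% ± 5.00, the BRM014 libraries 4.17% ± 3.19 and the DEX_BRM014 libraries 9.17% ± 5.69. In counts, DEX_DMSO held 11, 13, 14 and 11 of 30 and DEX_BRM014 5, 3, 2 and 1, with no overlap. Peaks of every kind were fewer with the inhibitor, on average 98808 in DEX_DMSO and 55519 in DEX_BRM014, and collagen regions held were 519 and 295.0. The part of that general fall in these counts was not tested, and the DEX-gained regions of the whole genome were not scored in the same way. In its own right, the 4 h comparison gained 8 of 1083 collagen regions (0.739%, against 1.33% of all) and lost 5 (0.462%, against 0.383%), and 8 of 44 collagens had a gained region (18.2%, against 14.6%) and 4 a lost one (3.92% of all genes). Of those 8 regions 4 (50.0%) overlapped the 30 of the 2 h comparison (13.3%), against 52.4% and 30.7% of all gained regions. With BRM014 present, 3 regions were gained with DEX (0.17% of all were gained), 0 lost (0.0763%) and 169 kept (15.6%). The gains lay at 3 collagens and the losses at 0 (2.29% and 0.673% of all genes), and the gains were chr7:7553400-7553721 near COL28A1, chr6:56370441-56370860 within COL21A1 and chr2:237278230-237278544 near COL6A3. The best-ranked gains at 4 h were chr7:7562752-7563288 near COL28A1, chr3:99626275-99626482 near COL8A1 and chr2:227267820-227268089 within COL4A3, all held by 0 of 4 DMSO, 4 of 4 DEX_DMSO and 0 of 4 DEX_BRM014 libraries. COL21A1 lost 2 of its 42 regions with DEX at 4 h, more than any other collagen. Without DEX_DMSO replicate 1 13 regions were gained and 8 lost, and under BRM014 the gains numbered 4, 6, 4 and 5 and the losses 1, 0, 3 and 1 without BRM014 replicate 1, 3 or 4 or DEX_BRM014 replicate 4. Groups did not overlap at 1 collagen, COL4A3 (4, 6, 4 and 6 in DMSO and 7, 10, 9 and 9 in DEX_DMSO), with DEX higher and at none with DEX lower (5.02% and 0.642% of all genes), and under BRM014 at none (0.745% and 0.132%). By limma no collagen was called with DEX at 4 h in DMSO (3 at an unadjusted p under 0.05, with 0.178% of all genes called higher and 0.0172% lower) or under BRM014 (1 at an unadjusted p under 0.05, with 0.0344% higher and 0.0172% lower), and the exact permutation test called none. The interaction of DEX with BRM014 was called at 0 of 41 collagens (1 at an unadjusted p under 0.05) and at none of 17454 genes, so at no collagen was the DEX difference shown to depend on the inhibitor. These comparisons share groups: DEX and BRM014 were each set against the same DMSO libraries.

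**Figure D5:**
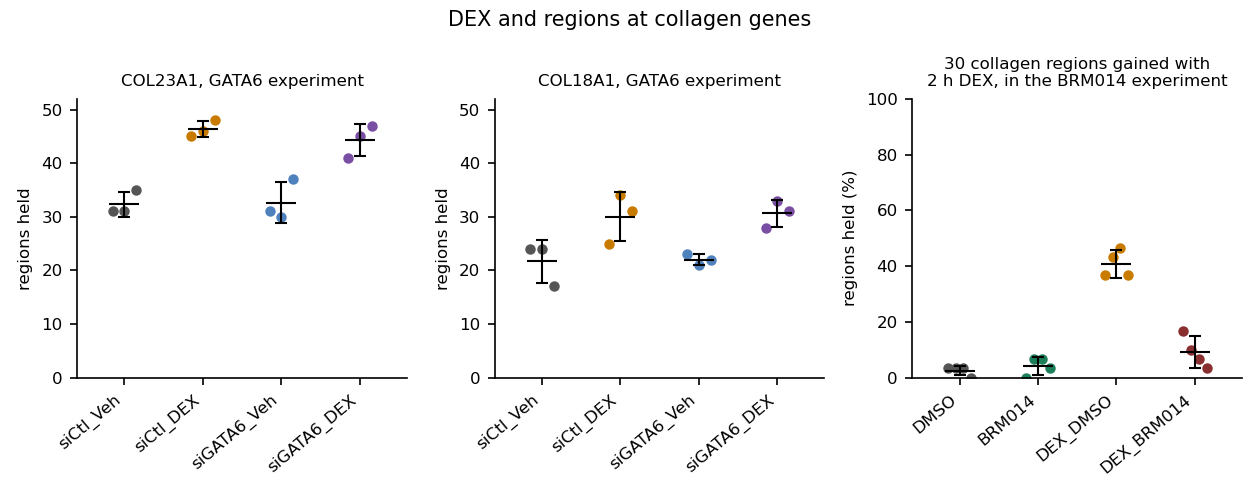
Left and middle, regions held at COL23A1 and COL18A1 (vertical axis) in the 4 groups of the GATA6 experiment. Right, percent of the 30 collagen regions gained with 2 h DEX that each library of the BRM014 experiment held. Points are libraries and bars give the mean ± SD (n = 3, 3 and 4), and DEX_DMSO stands at 40.8% against 9.17% in DEX_BRM014.

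Few collagen regions differed with siGATA6 in BT549 cells, and no collagen gene was called. GATA6 is a zinc-finger transcription factor that binds GATA motifs, and peak lists of DNA accessibility do not show how far it was depleted. In vehicle, 4 of 1205 collagen regions were gained with siGATA6 (0.332%, against 0.374% of all) and 6 lost (0.498%, against 0.658%). With DEX 6 were gained (0.498%, against 0.566%) and 5 lost (0.415%, against 0.597%), shares near those of all regions. A gained region was found at 4 of 44 collagens in vehicle and 7 with DEX (4.59% and 7.86% of all genes), a lost one at 5 and 6 (8.2% and 7.4%), and 432 and 457 collagen regions were kept (38.9% and 40% of all). Leaving out any 1 library of a pair gave 16 to 29 changed collagen regions in vehicle and 19 to 26 with DEX. Limma called 0 of 42 collagens in vehicle (4 at an unadjusted p under 0.05, 0.00545% of all genes called lower) and 0 with DEX (3 at an unadjusted p under 0.05, 0% of all called), the exact permutation test called none, and the DEX by siGATA6 interaction was called at none (1 at an unadjusted p under 0.05). COL12A1 had the smallest unadjusted p, 5.52e-04, in limma in vehicle, with an adjusted p of 0.563. It held 15, 14 and 16 regions in siCtl_Veh and 11, 11 and 12 in siGATA6_Veh, which did not overlap, and 12, 12 and 14 and 11, 11 and 12 with DEX, which did. COL12A1 lost 2 of 20 regions in vehicle, 1 of them chr6:75147468-75147823, held by 3 of 3 siCtl_Veh and 0 of 3 siGATA6_Veh libraries. Groups did not overlap at 2 collagens with siGATA6 higher, COL5A3 and COL4A4, and at 1 with siGATA6 lower, COL12A1 (1.32% and 3.51% of all genes), and with DEX at none (3.8% and 1.68%). COL4A1 and COL4A2 gained 2 regions, both shared by their windows, of which chr13:110348084-110348340 was held by 0 of 3 siCtl_Veh libraries and 3 of 3 of each other group in that experiment, and so was gained with DEX as well. The best-ranked lost region was chr6:56145016-56145194 within COL21A1, held by 3 of 3 siCtl_Veh, 3 of 3 siCtl_DEX, 0 of 3 siGATA6_Veh and 1 of 3 siGATA6_DEX libraries. No region lost in vehicle was lost with DEX (0 of 6 and 0 of 5), and none gained in vehicle was gained with DEX. The main stromal chains overlapped between siRNAs, with COL1A1 at 18, 16 and 21 in siCtl_Veh and 19, 19 and 20 in siGATA6_Veh, and COL1A2 at 13, 12 and 13 and 13, 13 and 13. COL3A1 held 10, 8 and 11 and 9, 9 and 9, COL5A1 30, 26 and 32 and 22, 25 and 30, and COL7A1 11, 10 and 11 and 11, 12 and 11, all overlapping.

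A list of 50 genes that make, cross-link, bind or cut collagens was mostly called lower by number with BRM014 or siBRG1_siBRM, as were most of all genes. It holds the prolyl and lysyl hydroxylases such as P4HA1 and PLOD2, the chaperone SERPINH1, propeptide proteases such as BMP1, the cross-linkers LOX and LOXL1 to LOXL4, receptors such as DDR2, and collagenases such as MMP1. By number 40 of 50 were called lower and 0 higher with BRM014 (limma, median −0.63, against 65% of all genes lower), 34 of 50 with BRM014 and DEX (−0.60, against 64.6%) and 32 of 49 with siBRG1_siBRM (−0.58, against 52.5%). Per 100000 held, however, 21, 22 and 14 were higher (46.2%, 46.6% and 32.8% of all genes) and 6, 5 and 5 lower (7.17%, 7.34% and 5.51%). A lost region was found at 39, 38 and 25 of the 50 (53.1%, 56.3% and 37% of all genes). In the 6 other comparisons limma called 0 of them in either direction on both scales.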

How the data were processed

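Transposase-accessible DNA was sequenced from 36 BT549 libraries in 10 groups. Each library has its own deposited peak list, where the authors gave each peak a score, a fold over background (a ratio) and a −log10 p and −log10 q value. The submitters' processing notes name bcl2fastq, SAMtools, MACS2, HOMER and GRCh38 (hg38); the aligner, read shifting, duplicate handling and caller settings were not given in the sources used here, and a read shift or another threshold would move peak edges and the number of weak peaks. Peaks overlapping by at least 1 bp were joined into regions within each experiment on chromosomes 1 to 22 and X. Genes came from RefSeq (GRCh38.p14). Read depth is not known. A Poisson model was fitted to the deposited fold and p of 3000 weak peaks, and the lowest fitted value was each library's relative background level. Of the pileups, 100% came out whole within 0.002. In the BRM014 and siBRG1_siBRM comparisons background levels differed less between treated and control groups than numbers of peaks did, but the level was not checked against read counts. The precision of a count of regions rests on 3 or 4 libraries a group.

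Regions held per gene, plus 0.5, were compared on a log2 scale with limma 3.58.1 (R 4.3.3, empirical Bayes with a trend, all groups of an experiment in 1 fit, genes with a mean of at least 2 regions, Benjamini-Hochberg adjusted p under 0.05), checked on simulated data. Exact permutation tests were two-sided. Alternatives were a −log10 q of at least 5, equal numbers of best peaks, peaks covering 50% of a region, windows of 10 and 100 kb, an offset of 1, no filter, regions per 100000 held, a replicate block and leaving out each library. Tables used Python 3.11.15, numpy 2.4.6, pandas 2.3.3, scipy 1.17.1 and matplotlib 3.10.9. Every collagen may be named; library values are given for the 3 collagens with most gained or lost regions per comparison, for 11 much-studied members and for collagens called by limma, and regions for the 3 best mean ranks of −log10 q per comparison and direction. For called collagens outside the first lists, values of the DMSO and BRM014 libraries are given and those of other groups where a call differs. The collagens, the list of 50 related genes and the markers were chosen with earlier results of these data known. Replicate numbers come from the titles, and p-values measure the spread between these libraries.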

Additional observations from a re-analysis of the deposited data

Results flagged for a closer look

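The regions held at each of 19 collagens, and at all collagens together, were checked in the 6 groups of 4 libraries for a library standing apart from the rest of its group by Dixon's 95% critical value. Of 119 such checks, 1 set of tied values left out, 19 found one. The critical value is made for continuous values, and these are small counts with many ties. Where 3 libraries are tied, any other value in the last one is flagged, as at COL3A1 in DMSO (7, 7, 7 and 8). The number of flags is therefore not set against a share expected by chance. In DMSO these were 8 regions at COL3A1 in replicate 4, 12 at COL4A2 in replicate 1 and 9 at COL7A1 in replicate 3. In BRM014, replicate 4 stood low with 3 regions at COL4A6, 7 at COL5A1, 5 at COL13A1 and 6 at COL15A1, and it also had the fewest peaks of its group, 41026. Replicate 2 of BRM014 stood high with 9 at COL1A2, and replicate 3 with 8 at COL17A1. In DEX_DMSO, COL1A1 held 18 in replicate 2 and COL4A2 held 17 in replicate 4. In DEX_BRM014, replicate 4 held 8 at COL13A1 and 7 at COL21A1, replicate 1 held 10 at COL12A1 and 7 at COL24A1, and replicate 2 held 8 at COL1A2. In siCtl_only, COL1A2 held 10 in replicate 1 and COL12A1 held 12 in replicate 2, and in siBRG1_siBRM COL13A1 held 7 in replicate 2. Several of these stand 1 region from libraries that are tied.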

How the results depend on the processing

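Counts of changed collagen regions moved by more than 1.5 times under these settings: 21 for DEX in control siRNA cells with −log10 q of at least 5; 18 for siGATA6 with DEX and 6 for DEX under BRM014 with peaks covering 50% of the region; 5 for DEX under BRM014 within 100 kb; and, with equal numbers of best peaks, 29 for BRM014, 33 for BRM014 with DEX and 16 for siBRG1_siBRM. Leaving out 1 library gave 40 to 55 and 39 to 49 for DEX in control siRNA and siGATA6 cells, 16 to 29 and 19 to 26 for siGATA6 without and with DEX, 88 to 102 for BRM014, 15 to 21 for DEX at 4 h, 104 to 113 for BRM014 with DEX, 3 to 7 for DEX under BRM014 and 42 to 68 for siBRG1_siBRM.

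Called collagens numbered 0 for DEX in control siRNA cells and 2 for DEX at 4 h with −log10 q of at least 5. Per 100000 regions held they numbered 20 for BRM014, 19 for BRM014 with DEX, 11 for siBRG1_siBRM and 1 for DEX in siGATA6 cells, and with equal numbers of best peaks 10, 13, 4 and 1. The exact permutation test called 0 for BRM014, 0 for BRM014 with DEX and 0 for siBRG1_siBRM, where 4 against 4 libraries cannot go below p = 0.0286. Leaving out 1 library gave 0 to 0 for DEX in control siRNA cells, 0 to 1 in siGATA6 cells, 30 to 36 for BRM014, 32 to 36 for BRM014 with DEX, 15 to 32 for siBRG1_siBRM and 0 to 0 elsewhere, with 1 without siGATA6_Veh replicate 3.

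Directions reversed in single genes, and the cause was not tested. With BRM014 per 100000 held, the log2 differences were 0.38 at COL1A1, 0.46 at COL1A2, 0.37 at COL3A1, 0.060 at COL4A2, 0.12 at COL5A1, 0.31 at COL7A1, 0.40 at COL12A1 and 0.30 at COL18A1. With equal numbers they were 0.11 at COL1A1, 0.55 at COL3A1, 0.091 at COL4A1, 0.014 at COL5A1, 0.00 at COL6A1 and 0.052 at COL12A1. With BRM014 and DEX per 100000 held they were 0.49 at COL1A1, 0.22 at COL1A2, 0.048 at COL4A1, 0.32 at COL5A1, 0.41 at COL7A1, 0.074 at COL16A1, 0.46 at COL17A1 and 0.33 at COL18A1. With equal numbers they were 0.30 at COL1A1, 0.85 at COL3A1, 0.51 at COL4A1, 0.056 at COL5A1, 0.27 at COL6A1 and 0.052 at COL17A1. With siBRG1_siBRM per 100000 held they were 0.34 at COL1A1, 0.11 at COL4A1, 0.26 at COL4A2, 0.32 at COL5A1, 0.16 at COL7A1 and 0.20 at COL17A1, and with equal numbers 0.19 at COL1A1, 0.50 at COL4A1, 0.15 at COL4A2 and 0.069 at COL17A1.

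Same-numbered libraries were not paired by the labels, and their deviations correlated between −0.127 and 0.148, so the numbers are only shared. With the replicate block 1 collagen, COL23A1, was called for DEX in siGATA6 cells (log2 0.44, limma adjusted p = 0.0212), and no other count moved by over 1.5 times. Every library correlated best with its own number in DEX with siGATA6, both siGATA6 comparisons and siBRG1_siBRM, a hint from the data and not from the design. The lists hold only called peaks, so openings under the authors' threshold were not detectable.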
